A study of Mus musculus with 6 samples.

Results

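The genes described here are 10 components of canonical Wnt signaling: *Ctnnb1*, *Apc*, *Axin1*, *Axin2*, *Gsk3b*, the TCF/LEF genes *Tcf7*, *Tcf7l1*, *Tcf7l2* and *Lef1*, and the Wnt target *Sp5*. They were chosen by name, and for each gene all H3K56ac peaks in the gene body and up to 30 kb on either side were collected. These windows held 17 of the 11106 peaks in the set, and the 10 genes were among 21938 protein-coding genes of the annotation.

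The mark measured by ChIP-seq was H3K56ac, an acetylated lysine in the histone H3 core. The cells were mouse embryonic stem cells (mESCs) of the V6.5 line, kept undifferentiated with LIF on feeder cells. Cells were infected with lentivirus carrying a scramble shRNA (Scramble) or an shRNA against *Sirt6* (Sirt6KD), which encodes a deacetylase of this residue, so that both groups shared the infection, the feeder layer and the cell line. Each group had 2 H3K56ac libraries and 1 input DNA library. The deposited values were 1 merged list of peak positions without library or group of origin and without read counts, so the depth behind a peak was not used here, Scramble and Sirt6KD could not be compared, and no value below has a replicate error. Of 10 pluripotency genes checked as markers of the labelled cell type, 10 had a promoter peak, a peak with any base within 1 kb of a TSS, and 5 had one by the peak midpoint. Of 12 fibroblast genes checked for the feeder cells, 0 had either. Over all protein-coding genes the shares were 35.7% by any base and 33.9% by the midpoint. A CpG-rich start, with an observed to expected CpG ratio above 0.6, was held by 6 of the pluripotency genes and 0 of the fibroblast genes. Genes with such a start had a promoter peak more often, at 60.1%. The 2 lists are thus not matched, and the 0 of 12 cannot exclude a feeder signal.

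In canonical Wnt signaling, a destruction complex built on the scaffold proteins AXIN1, AXIN2 and APC lets the kinase GSK3B phosphorylate β-catenin, the product of *Ctnnb1*, which is then degraded. When a Wnt ligand binds its receptors, β-catenin is spared, enters the nucleus and binds TCF/LEF proteins on DNA. In mESCs, TCF7L1 is known mainly as a repressor, inhibition of GSK3 favors self-renewal, and *Axin2* and *Sp5* are widely used as readouts of the pathway.

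TCF/LEF proteins recognize short sequences of the form CTTTGAA or CTTTGAT or CTTTGTA or CTTTGTT, and these 4 heptamers were searched on both strands of the reference genome. They share their leading letters, so that no position can match more than one of them. Of the 17 peaks, 2 held a heptamer in their central 400 bp, the promoter peak of *Ctnnb1* and the upstream promoter peak of *Gsk3b*. The central 300 bp of the *Gsk3b* peak, chr16:38087891-38088190 in mm10, are shown for that reason on the plus strand with the heptamer in capitals, and they held no exon base. The bases just before the start of *Sp5*, chr2:70474673-70474922 on the plus strand, are shown beside it because *Sp5* held heptamers at its promoter and no peak, and this stretch was chosen after the values were seen. It is a RefSeq promoter sequence of build GRCm38.p6.
Gsk3b upstream promoter peak: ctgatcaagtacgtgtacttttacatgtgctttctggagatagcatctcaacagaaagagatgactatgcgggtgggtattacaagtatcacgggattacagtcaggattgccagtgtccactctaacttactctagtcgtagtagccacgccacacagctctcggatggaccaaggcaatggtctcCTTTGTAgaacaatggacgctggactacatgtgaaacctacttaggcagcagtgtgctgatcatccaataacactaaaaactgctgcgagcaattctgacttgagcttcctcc
Sp5 promoter: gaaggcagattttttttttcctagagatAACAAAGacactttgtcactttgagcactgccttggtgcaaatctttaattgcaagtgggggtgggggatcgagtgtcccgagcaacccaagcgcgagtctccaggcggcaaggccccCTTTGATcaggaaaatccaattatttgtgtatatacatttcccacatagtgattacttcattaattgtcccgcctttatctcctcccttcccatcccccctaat

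The *Gsk3b* stretch held CTTTGTA, 1 match. The 250 bases before *Sp5* held 2 matches, printed as AACAAAG, the reverse complement of CTTTGTT, and CTTTGAT. A match describes the letters of the reference and was not measured as a binding site.

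Of the 10 genes, 4 had a promoter peak, defined as a peak with a base within 1 kb of any annotated transcription start site (TSS) of the gene. These were *Ctnnb1*, *Apc*, *Gsk3b* and *Tcf7l1*. By the same rule 7836 of 21938 protein-coding genes, or 35.7%, had a promoter peak. With the peak midpoint in place of any base the count of 4 was the same, and the share of all genes was 33.9%. An internal peak, one in the gene body away from every TSS of the gene, was found in 2 of the 10 genes, *Apc* and *Tcf7l1*, against 7.27% of all protein-coding genes. That share was not matched for gene length, and these 2 bodies were 101629 and 162877 bp long. The longest of the 10 bodies, that of *Tcf7l2* at 191835 bp, held no internal peak. A flanking peak within 30 kb was found for 6 genes, *Ctnnb1*, *Apc*, *Axin1*, *Tcf7*, *Tcf7l1* and *Tcf7l2*, against 40.8% of all. No peak at all lay in the windows of *Lef1*, *Axin2* and *Sp5*, 3 of 10 genes, against 43.2% of all. The shares for the 10 genes rest on few genes and were not tested against those of all genes.

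The principal TSS, that of the main annotated coding transcript, was CpG-rich in all 10 genes, with an observed to expected CpG ratio above 0.6 over 500 bp on either side. The ratio ran from 0.634 at *Tcf7* to 1 at *Ctnnb1*, with a median of 0.832, against a median of 0.571 over all protein-coding genes. Among the 10441 protein-coding genes with a CpG-rich principal TSS, 60.1% had a promoter peak and 23.0% had no peak in their window. The matching counts among the 10 genes were 4 and 3.

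**Figure D1:**
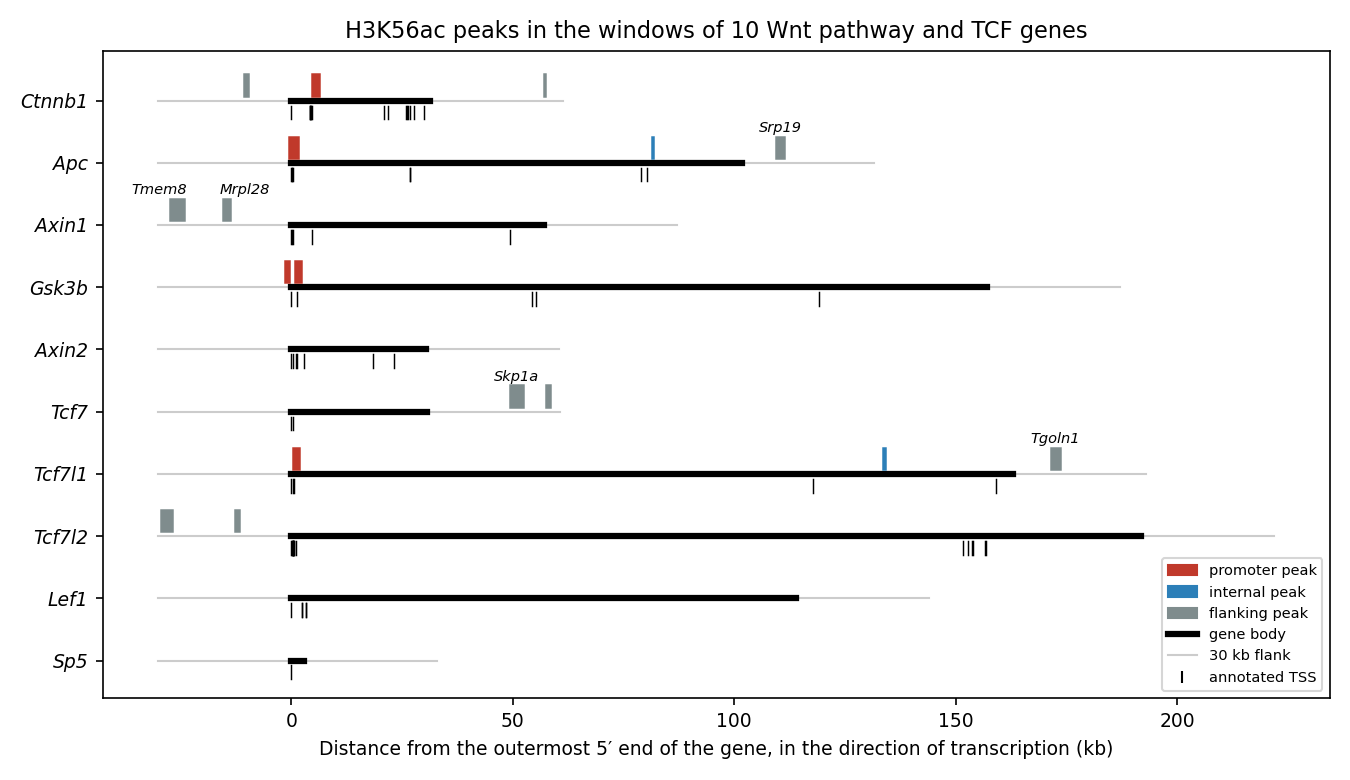
Peaks in the windows of the 10 genes, each drawn to scale from its outermost 5′ end (x axis, kb in the direction of transcription), with black bars for gene bodies, grey lines for the 30 kb flanks, ticks for annotated TSS and boxes for peaks colored by class. Names above flanking peaks are the other protein-coding genes whose TSS lies within 1 kb. *Lef1*, *Axin2* and *Sp5* have no box, and 5 of the 10 flanking peaks carry the name of a neighbor. Of all 11106 peaks, wherever they lay, 7311 were within 1 kb of a coding TSS.

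Over the windows together, 25070 of 1479613 bases, or 1.69%, lay inside a peak, against 0.529% of the assembled chromosomes. The windows held 1.15 peaks per 100 kb, against 0.407 over the chromosomes. These windows contain genes by construction, so a fairer background is that of gene windows. The median protein-coding gene had 1 peak in its window, 0.876 peaks per 100 kb and 0.594% of the window covered, while the medians of the 10 genes were 2 peaks, 1.14 per 100 kb and 1.55%. All 10 genes had a CpG-rich principal TSS, and medians over such genes alone are not given here, so the backgrounds are not matched. Part of the covered bases came from the 5 flanking peaks at the TSS of neighbors. The highest count was 3 peaks, in *Ctnnb1*, *Apc* and *Tcf7l1*, a count that 16.9% of protein-coding genes reached or passed.

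*Ctnnb1* (ENSMUSG00000006932.17, chr9:120929216-120960507, plus strand) encodes β-catenin, the effector of the pathway and also a component of cell junctions. It had 3 peaks covering 2910 bp, or 3.19% of its window. The promoter peak, chr9:120933871-120935467, was 1597 bp wide, a width at the 70.6th percentile of all peaks. It began 471 bases downstream of the principal TSS and 53 bases downstream of the nearest TSS, and its midpoint lay in intron 1 of the 15-exon principal transcript. No annotated TSS of the gene lay inside it, so this peak counted as a promoter peak by distance and not by overlap.
The other 2 *Ctnnb1* peaks were flanking. One, chr9:120918478-120919506, was 1029 bp wide and ended 9710 bases upstream of the outermost 5′ end. The other, chr9:120986235-120986518, lay 25728 bases past the end of the gene and at 284 bp was the narrowest of the 17 peaks. Neither lay at the TSS of another gene, although the gene *Ulk4* also overlapped the stretch between them. Their CpG ratios were 0.219 and 0.146, below the 0.65 of the promoter peak.

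*Apc* (ENSMUSG00000005871.15, chr18:34220924-34322552, plus strand) encodes a scaffold of the destruction complex. Its promoter peak, chr18:34220288-34222450, was the only one of the 17 to cover a principal TSS and the outermost 5′ end of a gene. It was 2163 bp wide, at the 82.9th percentile, reached from position -636 to 1526 relative to the outermost 5′ end, and was the widest of the 5 promoter peaks. A principal TSS inside a peak was found for 20.0% of all protein-coding genes and for 56.1% of those with a promoter peak. Among the 4 Wnt genes with a promoter peak it was found for 1.
The *Apc* internal peak, chr18:34302262-34302573, was 312 bp wide and lay in intron 11 of the 16-exon principal transcript. It was 1001 bases from the TSS of a noncoding processed transcript of the gene, so it fell just outside the 1 kb limit of a promoter peak. The last *Apc* peak, chr18:34330420-34332170, was 1751 bp wide, lay 7868 bases past the gene and sat at the TSS of *Srp19*, which encodes a subunit of the signal recognition particle. It had the highest CpG ratio of the 17 peaks, 0.946.

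*Gsk3b* (ENSMUSG00000022812.14, chr16:38089001-38246084, plus strand) encodes the kinase that marks β-catenin for degradation. Its 2 peaks were both promoter peaks, and they lay on either side of the principal TSS without covering it. The upstream peak, chr16:38087548-38088534, was 987 bp wide and ran from position -1453 to -467. The downstream peak, chr16:38089923-38091272, was 1350 bp wide, ran from position 922 to 2271, covered a second coding TSS at position 1287 and had its midpoint in coding exon 1. They were 1388 bp apart. Peaks on both sides within 3 kb of a peak-free principal TSS were found for 281, or 1.28%, of all protein-coding genes, a feature that was counted after the *Gsk3b* peaks were seen. The deposited list holds no 2 peaks closer than 1000 bp, so narrower gaps cannot appear in it. The upstream peak held 4 heptamers over its whole width, or 4.05 per kb, and the downstream peak 1.

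*Axin1* (ENSMUSG00000024182.16, chr17:26138688-26195811, plus strand) encodes the scaffold that limits assembly of the destruction complex. It had no peak in its body and none within 1 kb of a TSS. Its window held 2 upstream peaks, both at the TSS of other genes. The peak at *Tmem8*, chr17:26111271-26114374, was 3104 bp wide, the only one of the 17 to reach 3 kb, and the peak at *Mrpl28*, a mitochondrial ribosomal protein gene, chr17:26123349-26124915, was 1567 bp wide. The nearer one ended 13773 bases from the *Axin1* 5′ end. Because of them *Axin1* had the highest covered share of the 10 windows, 3.99%, with no peak assigned to its own promoter.

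*Axin2* (ENSMUSG00000000142.15, chr11:108920349-108950783, plus strand) encodes a second scaffold of the complex and is itself a Wnt target. It had 7 transcripts and no peak in its window. The nearest peak to the gene, chr11:109359295-109363900 at the TSS of *Gna13*, was 409 kb away, and the peak-free span around *Axin2* measured 934 kb. A gene body as far or farther from a peak was found for 11.4% of protein-coding genes and for 3.42% of those with a CpG-rich principal TSS.

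**Figure D2:**
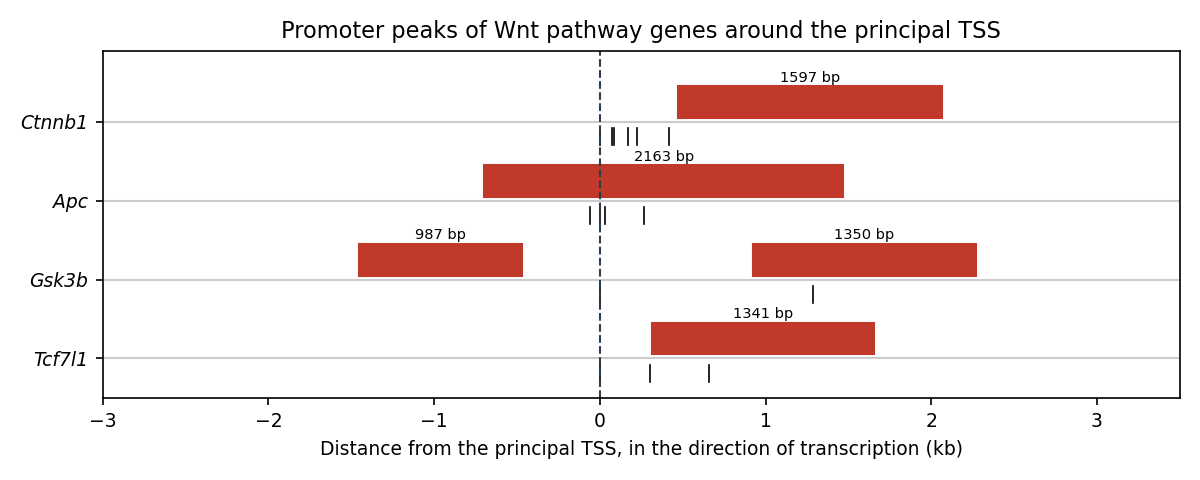
Promoter peaks of *Ctnnb1*, *Apc*, *Gsk3b* and *Tcf7l1* around the principal TSS (dashed line, 0 on the x axis, kb in the direction of transcription), with peak widths above the boxes and ticks for other annotated TSS. The *Apc* peak alone covers the principal TSS, and the 2 *Gsk3b* peaks leave 1388 bp between them.

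The 4 TCF/LEF genes encode the DNA-binding partners of β-catenin, and they differed in their peaks. *Tcf7l1* (ENSMUSG00000055799.13, chr6:72626378-72789254, minus strand) was the only one with a promoter peak. That peak, chr6:72787601-72788941, was 1341 bp wide, ran from position 313 to 1653 after the principal TSS, covered another coding TSS at position 656 and had its midpoint in coding exon 3. It had the highest GC content of the 17 peaks, 61.6%.
*Tcf7l1* also had the wider of the 2 internal peaks, chr6:72655170-72655743. It was 574 bp wide, lay in intron 3 of the 12-exon principal transcript and was 15661 bases from the nearest TSS of the gene. The last *Tcf7l1* peak, chr6:72615807-72617718, was 1912 bp wide, lay 8660 bases past the gene and sat at the TSS of *Tgoln1*, which encodes a protein of the trans-Golgi network.

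*Tcf7* (ENSMUSG00000000782.15, chr11:52252371-52283014, minus strand), which encodes TCF1, had no peak in its body and 2 downstream. The nearer, chr11:52230811-52233682, was 2872 bp wide, lay 18689 bases past the gene and sat at the TSS of *Skp1a*, a ubiquitin ligase subunit gene. The farther, chr11:52224719-52225454, was 736 bp wide and lay at no TSS. Repeats masked in the reference made up 63% of it, the highest share of the 17 peaks, whose median was 10.2%.

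*Tcf7l2* (ENSMUSG00000024985.19, chr19:55741820-55933654, plus strand), which encodes TCF4, had 22 transcripts from 17 TSS and no promoter or internal peak. Its 2 peaks were both upstream and at no TSS of any annotated gene. The farther, chr19:55712327-55714848, was 2522 bp wide, at the 88.9th percentile of all peaks, and the nearer, chr19:55729092-55730060, was 969 bp wide and ended 11760 bases before the 5′ end. *Tcf7l2* was the nearest protein-coding gene of both. The 2522 bp peak was the widest of the 5 flanking peaks that lay at no TSS.

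*Lef1* (ENSMUSG00000027985.14, chr3:131110471-131224356, plus strand) had 8 transcripts and no peak in its window. The nearest peak, chr3:130728516-130731210 at the TSS of the ribosomal protein gene *Rpl34*, was 379 kb from the gene. The peak-free span around *Lef1* measured 1952 kb and also held the Wnt inhibitor gene *Dkk2*. A gene body as far or farther from a peak was found for 12.1% of protein-coding genes and for 3.69% of those with a CpG-rich principal TSS.

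*Sp5* (ENSMUSG00000075304.2, chr2:70474923-70477729, plus strand) encodes a zinc finger transcription factor that is induced by Wnt in many cell types. It is a gene of 2807 bp with 1 transcript, and it had no peak in its window. The nearest peak was 184 kb away, and the peak-free span measured 776 kb. A gene body as far or farther was found for 20.5% of protein-coding genes and for 7.52% of those with a CpG-rich principal TSS. No other protein-coding gene had its 5′ end in the windows of *Lef1*, *Axin2* or *Sp5*. In the windows of the other genes there were 10 such neighbors, 5 of which had a promoter peak. The share was 35.7% over all protein-coding genes and 60.1% over those with a CpG-rich principal TSS.

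**Figure D3:**
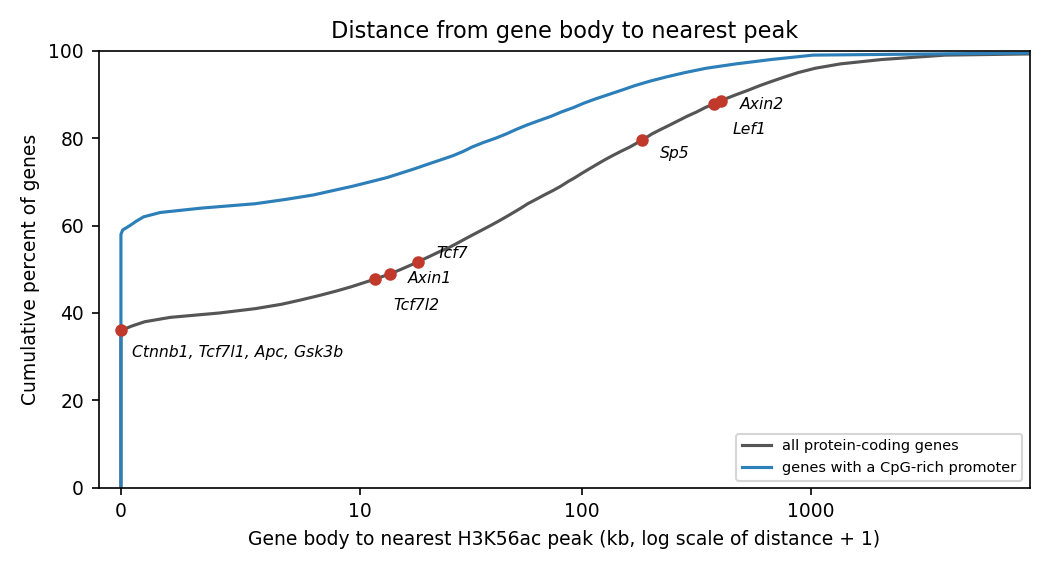
Cumulative percent of protein-coding genes (y axis) by the distance from the gene body to the nearest peak (x axis, kb, log scale of distance + 1), for all genes and for genes with a CpG-rich principal TSS, with the 10 Wnt genes as red points on the curve of all genes. *Sp5*, *Lef1* and *Axin2* lie 184 kb to 409 kb from a peak, while *Tcf7l2*, *Axin1* and *Tcf7* lie 11.8 kb to 18.7 kb away.

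Ordered by the distance from the gene body to the nearest peak, *Ctnnb1*, *Apc*, *Gsk3b* and *Tcf7l1* overlapped a peak, *Tcf7l2*, *Axin1* and *Tcf7* followed at 11.8 kb, 13.8 kb and 18.7 kb, and *Sp5*, *Lef1* and *Axin2* were farthest. For *Axin1* and *Tcf7* that nearest peak was at the TSS of a neighbor, while for *Tcf7l2* it was at none.

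The 5 promoter peaks were 987 to 2163 bp wide with a median of 1350 bp, against a median of 1162 bp over all 7311 promoter peaks. The 2 internal peaks, at 312 and 574 bp, were below the median of 603 bp of all 1710 internal peaks. The 10 flanking peaks ranged from 284 to 3104 bp with a median of 1659 bp. The 5 at the TSS of another gene had a median of 1912 bp and the 5 at none a median of 969 bp, and these ranges overlapped, since the *Tcf7l2* peak of 2522 bp was wider than 3 of the 5 peaks at a TSS.

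**Figure D4:**
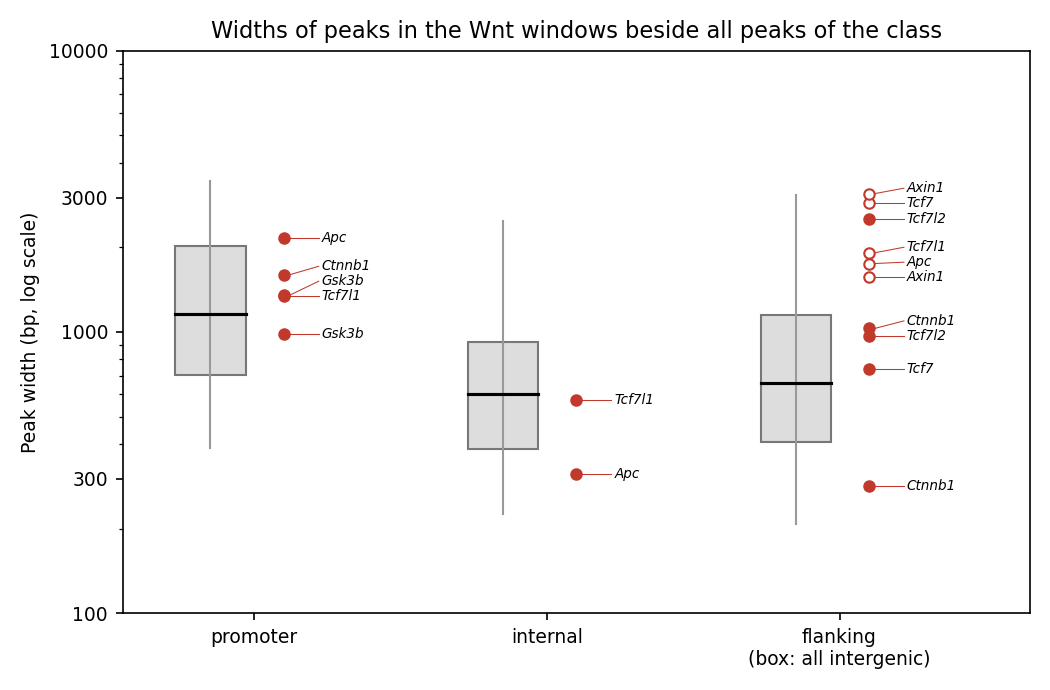
Widths of the 17 peaks (red points, y axis in bp on a log scale) by class, beside all peaks of the class (box for the quartiles, line for the median, whiskers for the 5th and 95th percentiles, with all intergenic peaks beside the flanking ones). Open points mark flanking peaks at the TSS of another gene. The intergenic peaks leave out peaks within 1 kb of a coding TSS, so their box is not a like background for these 5. The 5 were 1567 to 3104 bp wide, against a median of 1162 bp for all promoter peaks.

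The heptamer share was 2 of 17 peaks, or 11.8%, and 23.1% of all peaks held a heptamer in the same central 400 bp. The share of 11.8% had a Wilson 95% interval of 3.29% to 34.3%, which covers counting error only. That interval treats the 17 peaks as independent draws, although they are all the peaks of the named windows. Over the central 1000 bp the share was 41.2% for the 17 and 48.9% for all. Over whole peaks it was 52.9% and 51.6%, where the 17 peaks were also wider, with a median of 1350 bp against 913.5 bp. RefSeq promoters, 14 in number, were matched to 8 of the 10 genes and to neither *Apc* nor *Axin1*. They were not 14 separate loci, since some genes had several, and those of *Ctnnb1* and some of *Lef1* overlapped each other. Of these promoters 0 had a base inside a peak, against 18.2% of all 32851 RefSeq promoters, and the *Apc* start, which a peak covers, is not among them. A heptamer was held by 3, 1 promoter each of *Tcf7l2*, *Lef1* and *Sp5*, none of which had a promoter peak. The *Tcf7l2* one, chr19:55895071-55895370, and the *Lef1* one, chr3:131156044-131156343, lay inside the gene bodies, far from the principal TSS. The other RefSeq promoters of *Tcf7l2* and *Lef1* held 0 heptamers. Of the 3, only that of *Sp5* was at the start of its gene. Of all RefSeq promoters of the same length, 16.9% held a heptamer.

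A wider list of 108 other Wnt pathway genes was counted by role, and 37 of them, or 34.3%, had a promoter peak, against the 35.7% of all protein-coding genes. With the peak midpoint in place of any base the count was 31, and the share of all protein-coding genes was 33.9%. Of these 108 genes, 83 had a CpG-rich principal TSS and 33 of those, or 39.8%, had a promoter peak, against the 60.1% of all genes with a CpG-rich principal TSS. By role this share was 71.4% for cytoplasmic transduction, 66.7% for nuclear cofactors and 60% for junction partners. It was 41.7% for reported targets, 28.6% for extracellular inhibitors, 26.7% for receptors, 16.7% for the R-spondin arm and 0% for ligands. Of the secretion genes 1 was CpG-rich, and it had a promoter peak. Some genes, such as *Znrf3* and *Nkd1*, stand under more than one role, and no role was tested. By the midpoint the counts given below were lower for receptors, at 3, the R-spondin arm, at 0, and nuclear cofactors, at 7. They were also lower for junction partners, at 3, and reported targets, at 4, and the same for the other roles.
Among the Wnt ligands 0 of 19 had a promoter peak, 14 of them with a CpG-rich principal TSS, and 10 had no peak in their window. Both genes needed for ligand secretion had one, *Porcn*, the acyltransferase of Wnt proteins, at 647 bp and *Wls*, their carrier, at 1138 bp. Of 15 receptors 4 had one, the widest at the Frizzled genes *Fzd5* with 8038 bp and *Fzd7* with 7022 bp, followed by *Fzd10* with 1342 bp and the co-receptor *Lrp6* with 377 bp. In the R-spondin arm, which controls receptor turnover, 1 of 9 had one, *Znrf3* with 872 bp, and *Rspo3*, *Rspo4* and *Lgr5* had no peak in their window. Of 13 extracellular inhibitors 2 had one, *Kremen1* with 1734 bp and *Sfrp1* with 503 bp.

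Of 16 cytoplasmic transduction genes, which encode further kinases and other regulators of β-catenin in and around the destruction complex, 10 had a promoter peak. The widest were those of the casein kinase genes *Csnk1a1*, at 4324 bp, and *Csnk1d*, at 2592 bp, of the tankyrase gene *Tnks2*, at 2711 bp, and of the phosphatase subunit gene *Ppp2r1a*, at 2519 bp, while *Amer1*, *Nkd1* and *Nkd2* had no peak in their window. Of 15 nuclear cofactors 8 had one, led by the acetyltransferase gene *Ep300* with 3894 bp, *Smarca4* with 2170 bp, the corepressor *Tle4* with 2070 bp and *Cdc73* with 1751 bp, and 0 had an empty window. Of 19 reported target genes 7 had one, or 4 by the midpoint, the widest at *Esrrb* with 7226 bp, *Ccnd1* with 5674 bp, *Klf2* with 5290 bp and *Nr5a2* with 5162 bp. The *Esrrb* peak, chr12:86470010-86477235, and the *Nr5a2* peak, chr1:136950301-136955462, lay inside the genes, more than 1 kb from the outermost 5′ end. They counted as promoter peaks through another annotated TSS. *Esrrb* is also among the 10 pluripotency markers. Of the 19 reported targets, 7 had an empty window, against 43.2% of all protein-coding genes. Of 6 cadherin and catenin genes of cell junctions, the junction partners, 4 had one. These were *Jup* with 3326 bp, *Cdh1* with 3163 bp, *Ctnna1* with 2345 bp and *Ctnnd1* with 1275 bp. The *Jup* peak, chr11:100374032-100377357, also lay inside the gene and counted through a TSS other than the outermost 5′ end. *Cdh2* and *Ctnna2* had an empty window.

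**Figure D5:**
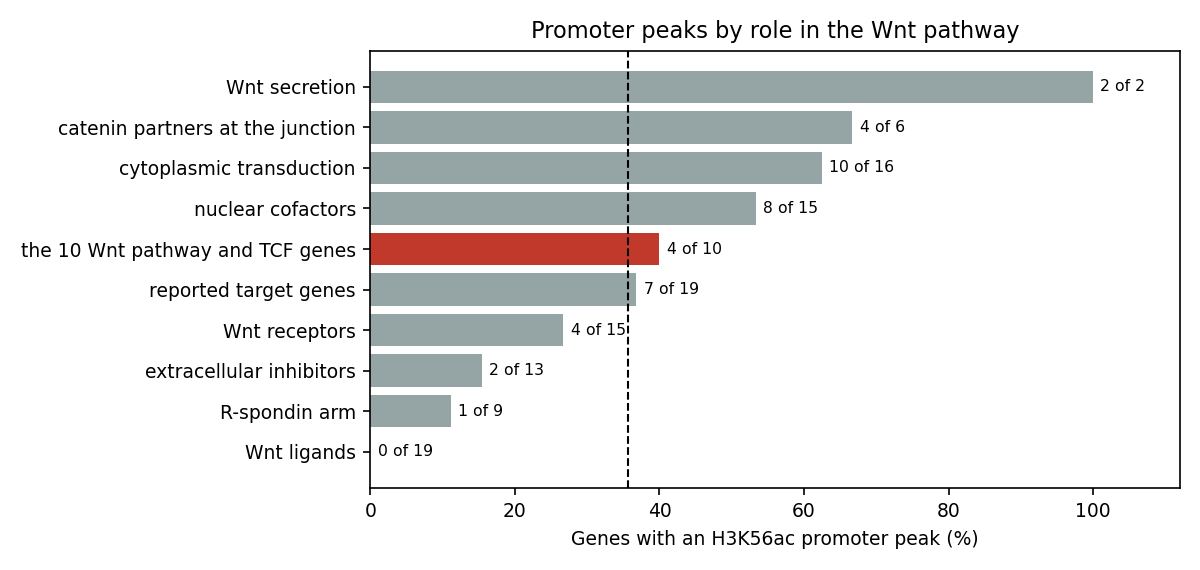
Percent of genes with an H3K56ac promoter peak (x axis) by role in the pathway, with the number of genes beside each bar and the 35.7% of all protein-coding genes as a dashed line. The 10 genes described here stand at 4 of 10, the ligands at 0 of 19 and the cytoplasmic transduction genes at 10 of 16. Among those with a CpG-rich principal TSS the counts were 4 of 10, 0 of 14 and 10 of 14, against 60.1% of all such genes.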

How the data were processed

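H3K56ac ChIP-seq and input libraries of V6.5 mESCs were grouped by the sample titles. The authors trimmed reads, aligned them to mm10 with bowtie keeping uniquely placed reads, removed duplicates, used MACS2 to call peaks, dropped those in blacklisted regions and merged the rest over the libraries. Identical repeats receive few uniquely placed reads, and a merged peak cannot be traced to its library. The deposited file holds start and end positions, and its deposited score was 0 in every line and carried no measurement.

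Positions were converted to count from 1. Genes and TSS came from GENCODE M21, and sequence from GRCm38.p6, the assembly of mm10. Promoter peaks had a base within 1 kb of any TSS of the gene, internal peaks another base in the body, and flanking peaks lay within 30 kb. The principal TSS was that of the APPRIS principal transcript, then of the longest coding sequence. It was used for CpG content because the outermost 5′ end misplaced the *Ctnnb1* start, a choice made after the data were seen. The CpG ratio was observed over expected CpG.

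The genes and lists were chosen with earlier results of these data known. All 10 genes were named with every peak, neighbors where a peak lay within 1 kb of their TSS, and from each wider list up to 4 genes with the widest promoter peak and, where there were at most 5, those with an empty window. No test was made, since the file holds no value per library. The sequence of the *Ctnnb1* peak is not reported here. Classification was tested on planted peaks. Alternatives changed the flank, promoter distance, TSS set, use of the midpoint, peak width, joining of near peaks and heptamer window. Python 3.11.15, numpy 2.4.6, pandas 2.3.3, pysam 0.24.0 and matplotlib 3.10.9 were used.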

Additional observations from a re-analysis of the deposited data

How the results depend on the processing

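Of 40 alternatives to 12 results, 30 kept a count within 1.5 times, a median or covered share as it was, or the heptamer share within its Wilson interval, and 10 did not. With flanks of 10 kb the windows held 10 peaks, 3 of them flanking with a median width of 1751 bp, and 1.08% of window bases lay in a peak. With flanks of 50 kb the median width of flanking peaks was 1029 bp and 1.47% of bases lay in a peak, and over gene bodies alone 0.762% did. Among peaks of at least 500 bp there was 1 internal peak, that of *Tcf7l1*. A heptamer was found in 41.2% of the peaks over the central 1000 bp and in 52.9% over whole peaks, against 48.9% and 51.6% of all peaks. CTTTGAT alone was found in 5.88% of the central 400 bp stretches, a share that the wide Wilson interval still held. The count of 4 genes with a promoter peak was 3 when only the outermost 5′ end was used, which leaves out *Ctnnb1*, and 4 under the other 5 alternatives tried for it. No paired analysis was possible because there are no values of single libraries, and leaving out a replicate was not possible for the same reason. Peak presence depends on a calling threshold and on depth, neither of which can be read from the positions, so an empty window means no called peak and not absence of H3K56ac.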
